A study of Homo sapiens with 5 samples.

Results

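The 10 genes described here encode alternative forms, or isoenzymes, of the enzymes that run 5 steps of glycolysis in human cells: HK1 and HK2 (hexokinase), PFKP and PFKM (phosphofructokinase), ALDOA and ALDOC (aldolase), ENO1 and ENO2 (enolase) and LDHA and LDHB (lactate dehydrogenase). They were chosen by name as pairs of isoenzymes, and each matched 1 row among the 57905 genes of the expression table. RNA of 5 cell lines was sequenced, with 1 library per line. MCC13, MKL-1, MKL-2 and WaGa are labelled as Merkel cell carcinoma (MCC), a neuroendocrine cancer of the skin, and REH as a pre-B-cell acute lymphoblastic leukemia line (pre-B-ALL). All 5 lines are labelled wild type and were grown in RPMI medium with fetal bovine serum, and the labels name no drug, low oxygen or other treatment. Each line stands here as 1 library, so a property of the line, of its culture and of its library cannot be told apart.

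Hexokinase traps glucose in the cell as its phosphate, phosphofructokinase is the committed and most regulated step, aldolase splits the sugar, enolase makes the last high-energy intermediate, and lactate dehydrogenase interconverts pyruvate and lactate after the pathway ends. Vertebrates carry several genes for each of these steps, and tissues differ in which they use. The isoenzymes differ in their kinetics, in their place in the cell and in how their genes respond to low oxygen and to growth signals, and ENO2 and ALDOC are forms long known from neurons.

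Values are TPM, the abundance of a gene's transcripts per length, scaled so that all genes of a library sum to the same total. It keeps no read depth, so the depth behind each value is unknown and no counting interval can be given. Between 15949 and 16921 genes reached 1 TPM in a line, and mitochondrially encoded genes took 3.52% of the total in MCC13, 6.50%, 6.37% and 7.84% in MKL-1, WaGa and MKL-2, and 0.783% in REH. Several defining markers of its label were absent in MCC13. The 12 Merkel and neuroendocrine marker genes summed to 548 TPM in MCC13, against 4368 to 8606 TPM in the other 3 MCC lines. ATOH1, INSM1, ISL1, KRT20 and NEUROD1 were listed at 0 in MCC13. Most of its sum was KRT8 at 313 TPM and KRT18 at 229 TPM, against 374 to 974 and 86.4 to 239 TPM in the other 3 MCC lines. The rest of the list stood at or under 3.23 TPM in MCC13. The 12 mesenchymal markers summed to 11830 TPM in MCC13, against 21.0 to 24.8 TPM in the other 3 MCC lines. REH carried the early B lineage markers, which summed to 6473 TPM there, although VPREB1 was listed at 0. Because these are bulk samples, a lower level cannot be told apart from fewer cells that hold the transcript.

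The 4 promoter windows shown here belong to ALDOC, the most variable member, ENO2, which was called in MCC13, and LDHA with its counterpart LDHB. The windows of HK2 and PFKM, which varied more than LDHA, are not printed. The 4 windows were not chosen to represent a line. ALDOC, LDHA, ENO2 and ALDOA were all highest of the MCC lines in MKL-2. The matches described next were many in the first 2 of these genes and few in the windows of the others. Each covers 250 bases before and 50 bases after the first-listed start of the gene in RefSeq (GRCh38.p14), read along the gene's own strand. Capitals mark every ACGTG or GCGTG, the core of the element bound by hypoxia-inducible factors, on either strand, so CACGT and CACGC are capitals too and neighbouring matches can overlap. ALDOC lies on the minus strand of chromosome 17 (window chr17:28576846-28577145), LDHA on the plus strand of chromosome 11 (chr11:18394313-18394612), LDHB on the minus strand of chromosome 12 (chr12:21657793-21658092) and ENO2 on the plus strand of chromosome 12 (chr12:6914330-6914629).
ALDOC: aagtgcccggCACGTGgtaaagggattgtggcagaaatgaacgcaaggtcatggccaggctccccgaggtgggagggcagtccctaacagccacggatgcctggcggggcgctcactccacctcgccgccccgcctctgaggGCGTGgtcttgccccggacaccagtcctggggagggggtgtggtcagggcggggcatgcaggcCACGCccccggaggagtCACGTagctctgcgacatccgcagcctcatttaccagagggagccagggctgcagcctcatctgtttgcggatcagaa
LDHA: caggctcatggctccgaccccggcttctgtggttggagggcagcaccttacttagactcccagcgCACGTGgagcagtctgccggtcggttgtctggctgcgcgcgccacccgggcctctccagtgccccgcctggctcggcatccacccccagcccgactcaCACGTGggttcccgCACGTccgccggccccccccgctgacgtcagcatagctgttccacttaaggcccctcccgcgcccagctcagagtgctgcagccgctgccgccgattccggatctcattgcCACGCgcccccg
LDHB: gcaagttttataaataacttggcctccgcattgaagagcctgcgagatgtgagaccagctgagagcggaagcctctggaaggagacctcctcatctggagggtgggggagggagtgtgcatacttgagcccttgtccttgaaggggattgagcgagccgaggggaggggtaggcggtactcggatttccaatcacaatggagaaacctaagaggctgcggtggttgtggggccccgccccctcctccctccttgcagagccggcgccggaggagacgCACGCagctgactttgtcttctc
ENO2: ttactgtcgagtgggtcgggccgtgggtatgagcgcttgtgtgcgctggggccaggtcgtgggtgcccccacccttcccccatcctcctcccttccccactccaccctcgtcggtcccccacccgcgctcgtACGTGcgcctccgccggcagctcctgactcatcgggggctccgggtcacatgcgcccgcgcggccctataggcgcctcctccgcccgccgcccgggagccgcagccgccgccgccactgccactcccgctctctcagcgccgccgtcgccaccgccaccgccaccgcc

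The LDHA window held 6 matches in 4 separate stretches and the ALDOC window 5 matches in 4 stretches. The windows of LDHB and ENO2 held 1 match each. Among the other members, the first-listed window of HK2 held 3 matches, that of ENO1 held 2, that of ALDOA held 1, and those of HK1, PFKP and PFKM held none. At least 1 match stood in 7 of the 10 members' first-listed windows, against 48.4% of the first-listed windows of 27305 genes, and 2 or more stood in 4 of the 10, against 23.3% of all. Several members have further starts: the LDHA window at its second start held 1 match, a second HK2 window held 6, and PFKP, HK1 and PFKM each had at least 1 window among their later starts that held a match. A match is a run of letters and was not tested for binding.

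**Figure D1:**
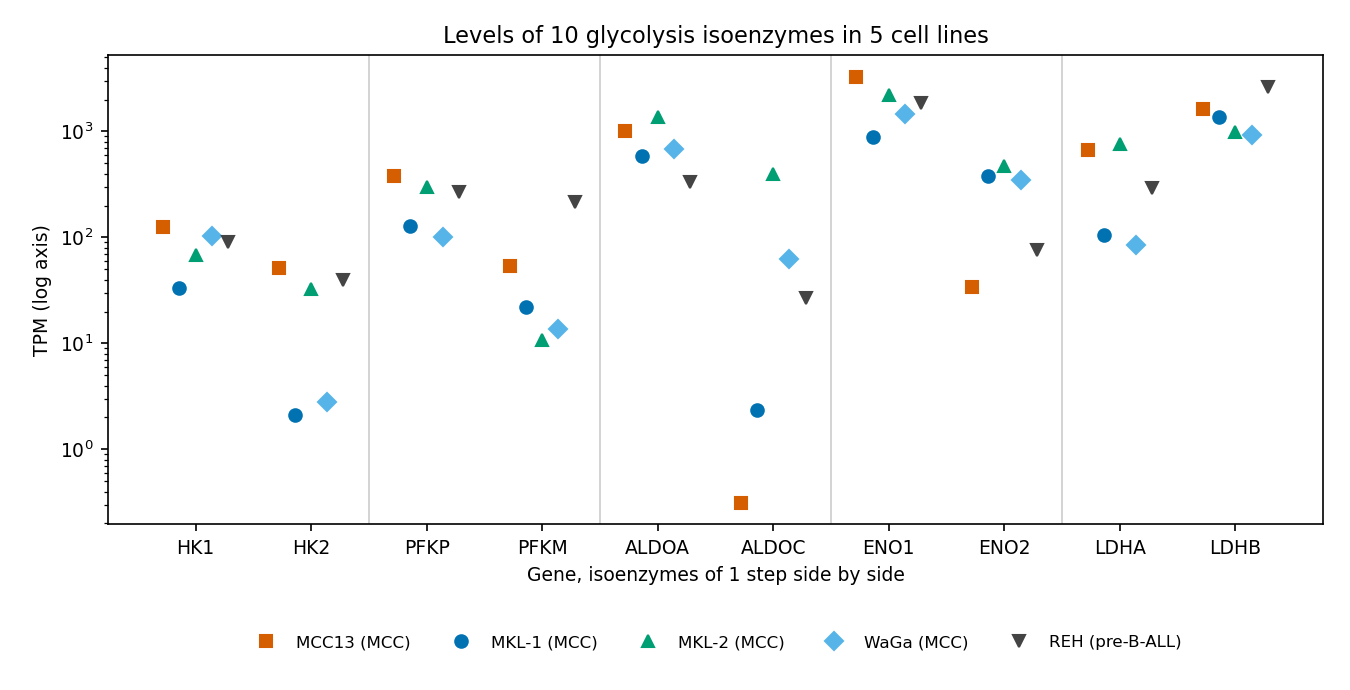
Level of each isoenzyme gene in TPM on a log axis, with 1 point for each cell line (MCC13, MKL-1, MKL-2, WaGa and REH, 1 library each). ALDOC runs from 0.312 TPM in MCC13 to 393 TPM in MKL-2, whereas LDHB stays between 919.7 and 2644 TPM in all 5 lines.

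None of the 10 genes was listed at 0 in any line. Together they took 0.723% of the TPM total in MCC13, against 0.352%, 0.378% and 0.658% in MKL-1, WaGa and MKL-2, and 0.583% in REH. The widest range over the 5 lines belonged to ALDOC, whose highest value was 1262 times its lowest. HK2 followed with a ratio of 24.4, PFKM with 20.1, ENO2 with 13.8 and LDHA with 9.06. The other 5 members, ALDOA, PFKP, HK1, ENO1 and LDHB, stayed within ratios of 2.87 to 4.02. In each of the 5 pairs, 1 member was thus among the 5 most variable and its partner among the 5 least variable.

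The hexokinase step was led by HK1 in every line, and HK2 was high in 3 lines and low in 2. HK1 (ENSG00000156515, chromosome 10), the broadly expressed form that binds mitochondria, stood at 125 TPM in MCC13, against 33.1, 103 and 68.2 TPM in MKL-1, WaGa and MKL-2, and at 89.9 TPM in REH. HK2 (ENSG00000159399, chromosome 2), the insulin-responsive form of muscle and fat that many tumours switch on, stood at 51.9 TPM in MCC13, against 2.13, 2.80 and 32.6 TPM in MKL-1, WaGa and MKL-2, and at 39.5 TPM in REH. MCC13, MKL-2 and REH thus lay more than 10-fold above MKL-1 and WaGa, and the MCC lines lay on both sides of this gap. As a share of the summed TPM of the 4 hexokinase genes analysed (HK1, HK2, HK3 and HKDC1), HK2 made up 29.0% in MCC13, against 5.96%, 2.59% and 32.1% in MKL-1, WaGa and MKL-2, and 30.5% in REH. The hexokinase sum was 179 TPM in MCC13, against 35.7, 108 and 101 TPM in MKL-1, WaGa and MKL-2, and 129 TPM in REH. Neither gene passed the test in MCC against REH (HK2 averaged 22.4 ± 24.3 TPM (SD, n = 4) in MCC against 39.5 TPM in REH, with a difference of -1.75 ± 1.94 (SE) on the log2(TPM + 1) scale and an adjusted p of 0.699 by limma).

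At phosphofructokinase the lines differed most in the muscle form, which was high in REH alone. PFKM (ENSG00000152556, chromosome 12) stood at 53.2 TPM in MCC13, against 22.1, 13.7 and 10.8 TPM in MKL-1, WaGa and MKL-2, and at 218 TPM in REH. All 4 MCC lines lay below REH, and within MCC the value of MCC13 lay above the other 3. PFKM averaged 25.0 ± 19.4 TPM in MCC (SD, n = 4) against 218 TPM in REH, a difference of -3.34 ± 0.92 (SE) on the log2 scale that did not pass (limma, adjusted p = 0.150). Without MCC13 the difference was -3.78 and passed (adjusted p = 0.0333), in a fit that called 13.3% of all genes tested. The 10 skeletal muscle and heart markers summed to 0.345 TPM in MCC13, against 23.9 to 35.3 TPM in the other 3 MCC lines, and 1.02 TPM in REH. Most of the sum in those 3 lines was the myoglobin gene MB, at 26.5, 21.0 and 30.3 TPM in MKL-1, WaGa and MKL-2, with MYOD1 at 7.33 TPM in MKL-1, and every other marker was below 3 TPM in all 5 lines.

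PFKP (ENSG00000067057, chromosome 10), the platelet form that is also the main form of many cultured cells, stood at 381 TPM in MCC13, against 127, 100.3 and 302 TPM in MKL-1, WaGa and MKL-2, and at 267 TPM in REH. MCC13 and MKL-2 lay above REH and the other 2 MCC lines below it, so the groups overlapped (difference -0.44 ± 0.87 SE, adjusted p = 0.807 by limma). PFKM made up 9.59% of the phosphofructokinase sum in MCC13, against 7.47%, 4.03% and 2.31% in MKL-1, WaGa and MKL-2, and 30.5% in REH. The liver form PFKL, which completes the step, made up 21.6% in MCC13, against 49.7%, 66.5% and 33.2% in MKL-1, WaGa and MKL-2, and 32.2% in REH. The leading form was therefore PFKP in MCC13, MKL-2 and REH, and PFKL in MKL-1 and WaGa, the lines in which HK2 was low. The log2 ratio of PFKP over PFKM, each with 1 TPM added, was 2.82 in MCC13, 2.47, 2.78 and 4.68 in MKL-1, WaGa and MKL-2, and 0.29 in REH. REH lay below all 4 MCC lines (difference 2.90, exact permutation test, 2-sided p = 0.2, the smallest that 4 lines against 1 allow).

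**Figure D2:**
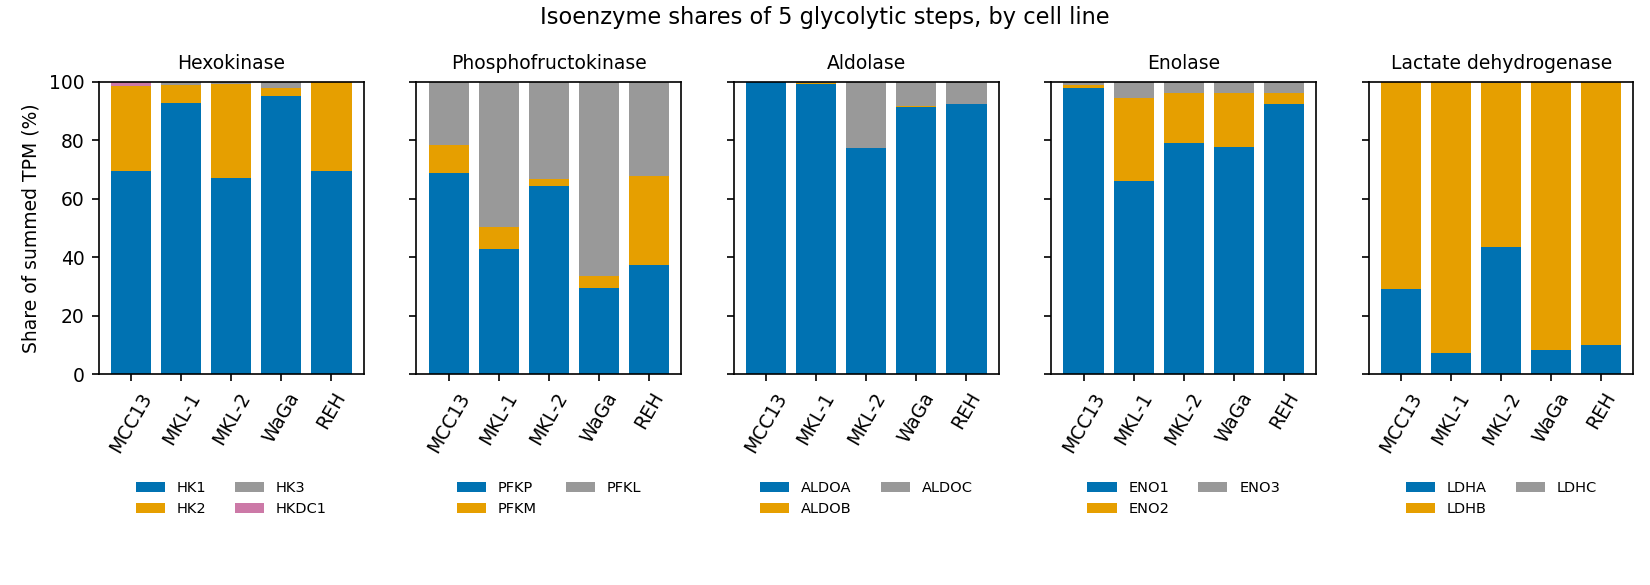
Share of each isoenzyme in the summed TPM of its step (%), in 1 panel for each of the 5 steps, with 1 stacked bar per line ordered MCC13, MKL-1, MKL-2, WaGa and REH. ENO2 takes 1.01% of enolase in MCC13 and 17.0% to 28.3% in the other 3 MCC lines, and LDHA takes its largest share, 43.5%, in MKL-2.

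ALDOA led the aldolase step in every line, and ALDOC took its largest share in MKL-2. ALDOA (ENSG00000149925, chromosome 16), the form of muscle and of most dividing cells, stood at 1011 TPM in MCC13, against 591, 683 and 1353 TPM in MKL-1, WaGa and MKL-2, and at 337 TPM in REH. It was the only member for which all 4 MCC lines lay above REH. ALDOA averaged 910 ± 347 TPM in MCC (SD, n = 4) against 337 TPM in REH, and the difference of 1.35 ± 0.54 (SE) on the log2 scale did not pass (limma, adjusted p = 0.294).

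ALDOC (ENSG00000109107, chromosome 17), the form of brain, stood at 0.312 TPM in MCC13, against 2.36, 62.2 and 393 TPM in MKL-1, WaGa and MKL-2, and at 27.0 TPM in REH. The value in MKL-2 was several times that in WaGa, the next line, and MCC13 and MKL-1 were the lowest lines. Its share of aldolase was 0.0308% in MCC13, against 0.396%, 8.34% and 22.5% in MKL-1, WaGa and MKL-2, and 7.42% in REH. Among MCC lines that carry the neuroendocrine markers, the ALDOC level thus ran from 2.36 to 393 TPM, with a mean of 153 ± 211 TPM (SD, n = 3). With this spread no comparison passed: MCC13 minus the other 3 gave -5.06 ± 3.12 (SE, adjusted p = 0.393 by limma), and MKL-2 minus the other 3 gave 5.92 ± 2.39 (SE, adjusted p = 0.9997). ALDOC was under 1 TPM in MCC13, so it entered the test of that line only through the other 3, and the size of its difference there depends on the pseudocount. The log2 ratio of ALDOC over ALDOA was -9.59 in MCC13, against -7.46, -3.44 and -1.78 in MKL-1, WaGa and MKL-2, and -3.59 in REH. In MCC13 minus the other 3, this ratio differed by -5.37 with a pseudocount of 1 TPM, -6.88 with 0.1 and -3.76 with 5. MCC13 lay below the other 3 MCC lines in this ratio (exact permutation test, 2-sided p = 0.25, the smallest that 1 line against 3 allows).

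ENO2 was the member called in MCC13 against the other MCC lines, 1 of the 10, where 8.95% of the 20698 genes tested were called, so the share of members called was near that of all genes. ENO2 (ENSG00000111674, chromosome 12), the neuron-specific enolase used in pathology as a marker of neuroendocrine tumours, stood at 33.9 TPM in MCC13, against 381, 351 and 469 TPM in MKL-1, WaGa and MKL-2, and at 75.4 TPM in REH. A wide gap separated MCC13 from the other 3 MCC lines, and it was below REH as well. ENO2 fell to 33.9 TPM in MCC13, against a mean of 400.5 ± 61.5 TPM (SD, n = 3) in the other 3 lines, a difference of -3.51 ± 0.26 (SE) on the log2 scale (95% interval -4.29 to -2.73, limma adjusted p = 0.0132). The call rests on all 3 of those lines. Leaving out MKL-1, MKL-2 or WaGa gave differences of -3.54, -3.39 and -3.60 with adjusted p of 0.133, 0.0893 and 0.119, and in each of these fits no gene of the table passed; over all alternatives the adjusted p ran from 0.00895 to 0.133.

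Most neuronal markers were lower in the same comparison as ENO2. In MCC13 minus the other 3 lines, 11 of the 12 differences were negative, and TUBB3 stood highest in MCC13, at 204 TPM. Over all genes tested, 39.4% of the differences were positive. Their sum was 659 TPM in MCC13, against 2105, 2726 and 2595 TPM in MKL-1, WaGa and MKL-2, and 24.1 TPM in REH. Of the 12 Merkel and neuroendocrine markers 11 also had a negative difference, and all 12 mesenchymal markers had a positive one. Many of these markers, such as ATOH1, NEFL and VIM, were under 1 TPM on their low side. Such genes entered the test only through the side where they were high, which largely sets the sign of their difference. No calls are therefore given for the markers, and their counts of signs describe levels and are no test. The part of these markers in the ENO2 result was not tested.

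ENO1 (ENSG00000074800, chromosome 1), the ubiquitous form, stood at 3296 TPM in MCC13, against 891, 1463 and 2187 TPM in MKL-1, WaGa and MKL-2, and at 1840.1 TPM in REH. MCC13 was the highest of the 5 lines, and in that line ENO1 ranked 10 among all genes by TPM, against 120, 50 and 23 in MKL-1, WaGa and MKL-2, and 46 in REH. The ENO1 difference in MCC13 of 1.22 ± 0.63 (SE) did not pass (limma, adjusted p = 0.327). In MCC against REH it was -0.07 ± 0.77, and its sign turned under quantile normalization (0.18) and when mitochondrially encoded genes were removed (0.0076), so no direction can be given. ENO2 made up 1.01% of the enolase sum in MCC13, against 28.3%, 18.7% and 17.0% in MKL-1, WaGa and MKL-2, and 3.79% in REH. The muscle form ENO3 stayed between 1.07% and 5.41% of the step in the 5 lines. The log2 ratio of ENO2 over ENO1 was -6.56 in MCC13, -1.23, -2.06 and -2.22 in MKL-1, WaGa and MKL-2, and -4.59 in REH. MCC13 lay below the other 3 by 4.73 on average (exact permutation test, 2-sided p = 0.25, the smallest possible here).

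At lactate dehydrogenase the MCC lines fell into a high and a low pair for LDHA, whereas for LDHB they lay close together and below REH. LDHA (ENSG00000134333, chromosome 11), whose subunit favours the reduction of pyruvate to lactate, stood at 663 TPM in MCC13, against 106, 84.7 and 768 TPM in MKL-1, WaGa and MKL-2, and at 295 TPM in REH. MCC13 and MKL-2 lay above REH, and MKL-1 and WaGa below it. MCC13 and MKL-2 had also been above MKL-1 and WaGa for HK2 and PFKP. LDHB (ENSG00000111716, chromosome 12), whose subunit favours the oxidation of lactate, stood at 1612 TPM in MCC13, against 1361, 919.7 and 993 TPM in MKL-1, WaGa and MKL-2, and at 2644 TPM in REH. All 4 MCC lines lay below REH, and within MCC the highest value was 1.75 times the lowest.

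LDHB exceeded LDHA in every line. LDHA made up 29.1% of the lactate dehydrogenase sum in MCC13, against 7.20%, 8.43% and 43.5% in MKL-1, WaGa and MKL-2, and 10.04% in REH. By rank among all genes, LDHA was at place 179 in MCC13, against 2000, 2537 and 131 in MKL-1, WaGa and MKL-2, and at 522 in REH. LDHB averaged 1221 ± 324 TPM in MCC (SD, n = 4) against 2644 TPM in REH, and the difference of -1.15 ± 0.43 (SE) did not pass after adjustment (limma, adjusted p = 0.257). LDHA averaged 405 ± 361 TPM in MCC against 295 TPM in REH (difference -0.18 ± 1.53 SE, adjusted p = 0.962). In MKL-2 minus the other 3 MCC lines, LDHA gave 2.08 ± 1.34 and HK2 1.97 ± 1.93 (SE), and neither passed.

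**Figure D3:**
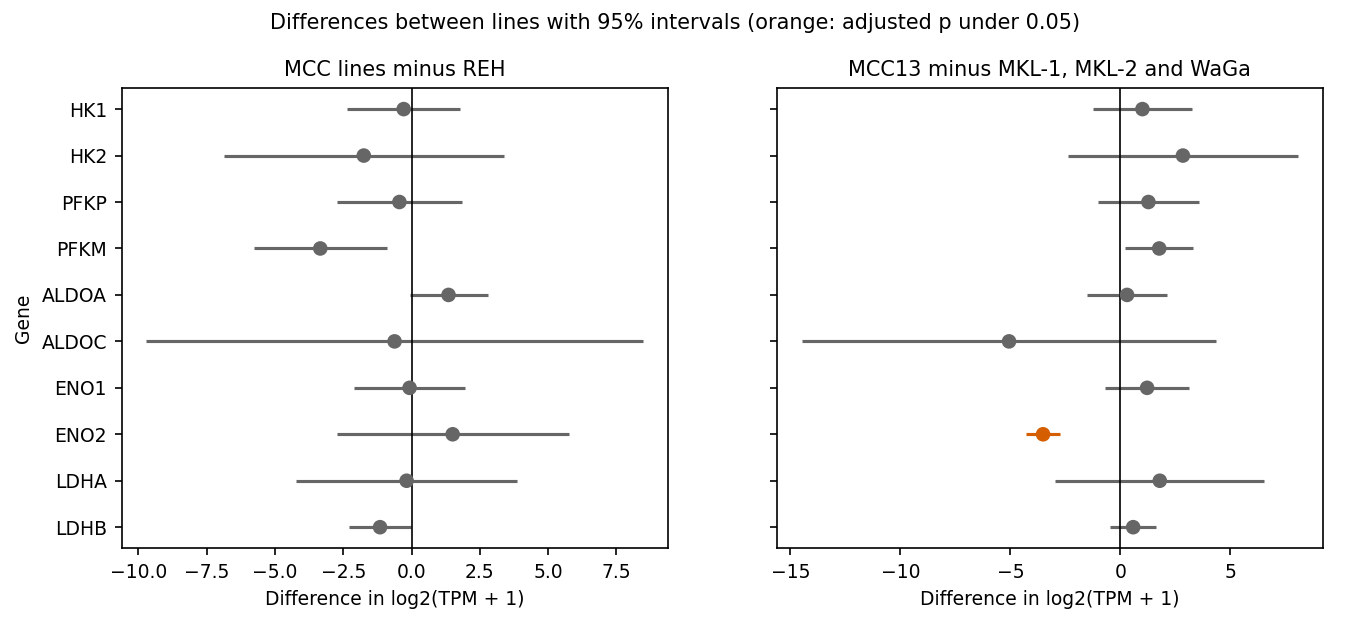
Differences in log2(TPM + 1) with 95% intervals from limma for each of the 10 genes, for MCC lines minus REH and for MCC13 minus MKL-1, MKL-2 and WaGa. The interval of ENO2 in MCC13 (-4.29 to -2.73) is the only one whose adjusted p is under 0.05, and most other intervals cross 0.

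Set against REH, the 4 MCC lines gave no call among the 10 genes, where 5.24% of the 22250 genes tested were called (limma, adjusted p under 0.05). At an unadjusted p under 0.05 there were 2, PFKM and LDHB, and no other tool was run. The members' median difference was -0.37, beside 0.18 over all genes tested, and 2 of the 10 differences were positive, where 56.5% of all were. REH lay above all 4 MCC lines for 2 of the 10 members, PFKM and LDHB, where 25.6% of all genes tested did so, and below all 4 for 1 member, ALDOA, where 27.0% did. The count changed without MCC13. PFKM was then lower and ENO2 higher in the remaining 3 MCC lines than in REH (differences -3.78 and 2.38, limma adjusted p = 0.0333 and 0.0238), so 2 of the 10 were called where 13.3% of 21247 genes were, and the other 8 were not. Leaving out MKL-1, MKL-2 or WaGa left 0 genes of the table called.

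Within MCC, the comparison of MCC13 with the other 3 lines called 1 of the 10, ENO2, as given above, and none without MKL-1, MKL-2 or WaGa. The members' median difference was 1.11, beside -0.30 over all genes, and 8 of the 10 were positive, where 39.4% of all were. MCC13 was the highest MCC line for 6 of the 10 (HK1, HK2, PFKP, PFKM, ENO1 and LDHB), where it was the highest for 27.7% of all genes. MKL-2 was the highest for the remaining 4 (ALDOA, ALDOC, ENO2 and LDHA), where it was for 23.0% of all genes, and MKL-1 and WaGa were the highest for none. With MKL-1, MKL-2 or WaGa as the single line, limma called 0% of the 20698 genes and none of the 10, with 296, 638 and 467 genes at an unadjusted p under 0.05. In those fits the only member at an unadjusted p under 0.05 was HK1 in MKL-1 (-1.50 ± 0.53 SE, limma adjusted p = 0.9999). These comparisons use the same 4 lines. Each takes for its single line the spread found among the other lines.

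The isoenzyme balance was compared in 10 tests, 5 ratios in each of the 2 comparisons. In MCC minus REH the log2 ratio differed by -1.46 for HK2 over HK1, 2.90 for PFKP over PFKM, -1.97 for ALDOC over ALDOA, 1.58 for ENO2 over ENO1 and -0.97 for LDHB over LDHA. In MCC13 minus the other 3 lines it differed by 1.84, -0.49, -5.37, -4.73 and -1.21 for the same ratios. The single line lay outside the range of the others in 3 of these tests, PFKP over PFKM in REH and both ALDOC over ALDOA and ENO2 over ENO1 in MCC13. Those 3 had the smallest p the exact permutation test allows (0.2 or 0.25), and the adjusted p over the 10 tests was 0.833 for them and 1 for the rest.

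**Figure D4:**
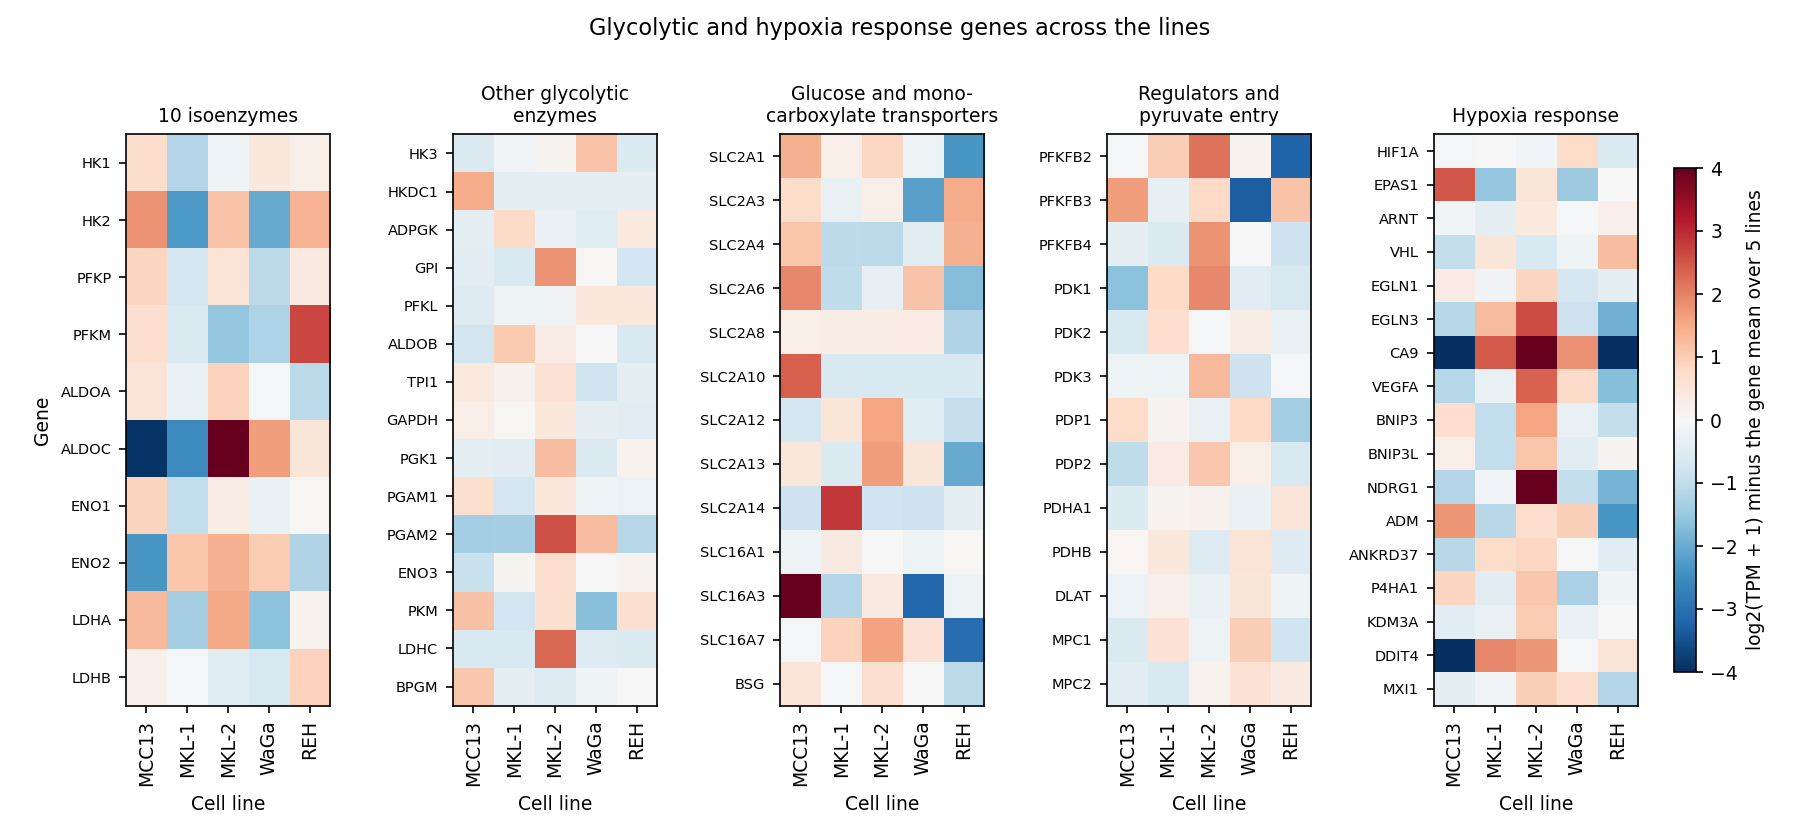
Level of each of the 10 isoenzyme genes and of the other glycolytic, transporter, regulator and hypoxia genes relative to its mean over the 5 lines, as colour on the log2(TPM + 1) scale (colours stop at -4 and 4; genes at 1 TPM or more in any line), with lines in columns (MCC13, MKL-1, MKL-2, WaGa and REH) and genes in rows. MKL-2 is the highest MCC line in 12 of the 17 hypoxia genes, where it is for 23.0% of all genes, and MCC13 is the lowest in 9 of them, near the 43.4% of all genes for which it is the lowest.

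The rest of the pathway was read from lists of genes by role. Of the 15 other glycolytic genes tested, none was called in MCC against REH, and 1, HKDC1, a minor hexokinase-like gene, in MCC13. HKDC1 reached 1 TPM in MCC13 alone, so it entered the test only through that line, and its levels are given without a test. It stood at 2.71 TPM in MCC13, against 0.0227, 0.0174 and 0.0161 TPM in MKL-1, WaGa and MKL-2, and made up 1.51% of the hexokinase sum in MCC13. GPI, the step after hexokinase, stood at 199 TPM in MCC13, 176, 277 and 948 TPM in MKL-1, WaGa and MKL-2, and 157 TPM in REH. PGK1, which makes ATP in the lower pathway, stood at 259 TPM in MCC13, 256, 227 and 802 TPM in MKL-1, WaGa and MKL-2, and 374 TPM in REH. PKM, a pyruvate kinase gene, stood at 2259 TPM in MCC13, 584, 310 and 1539 TPM in MKL-1, WaGa and MKL-2, and 1547 TPM in REH. The order of PKM in the lines was thus high in MCC13, MKL-2 and REH and low in MKL-1 and WaGa, as for HK2 and PFKP. LDHA divided the MCC lines alike, with REH between the high and the low pair. PGK1 was named after its values were seen. GPI and PKM fell under the naming rule, but their patterns over the lines were read after their values were seen. MKL-2 was the highest MCC line for 7 of the 15.

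Of the 13 transporters tested, none was called in MCC against REH and 1, SLC2A10, in MCC13. It stood at 7.02 TPM in MCC13 and was listed at 0 in the other 4 lines, so it too entered the test only through MCC13 and is given without a test. SLC2A1, the main glucose importer of tumours, stood at 399 TPM in MCC13, 181, 130 and 268 TPM in MKL-1, WaGa and MKL-2, and 28.8 TPM in REH. All 4 MCC lines lay above REH, and the difference of 2.92 ± 0.66 (SE) did not pass (adjusted p = 0.0991). SLC16A7, a lactate and pyruvate carrier, stood at 6.86 TPM in MCC13, 14.8, 11.4 and 24.6 TPM in MKL-1, WaGa and MKL-2, and was listed at 0 in REH. SLC16A7 thus entered the test only through the MCC lines, where it was high, and its levels are given without a test. SLC16A3, a lactate exporter, reached 250 TPM in MCC13, against 5.11, 0.59 and 16.7 TPM in MKL-1, WaGa and MKL-2, and 11.1 TPM in REH, and was named after its values were seen.

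No gene of the regulators (13 tested), of gluconeogenesis, of the pentose phosphate pathway (7 tested) or of the citric acid cycle (16 tested) passed in any of the 5 comparisons under the main settings. Some passed under other settings. Among the regulators PFKFB2, which sets the level of the main activator of phosphofructokinase, was at 7.70 TPM in MCC13, 17.2, 9.28 and 40.3 TPM in MKL-1, WaGa and MKL-2, and listed at 0 in REH. PCK1, an enzyme of gluconeogenesis, stayed under 1 TPM in all 4 MCC lines and stood at 5.06 TPM in REH. PFKFB2 entered the test only through the MCC lines and PCK1 only through REH, so their levels are given without a test. The median difference of the citric acid cycle genes between MCC and REH was -0.11, beside 0.18 over all genes.

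Genes of the response to low oxygen were examined because several of the 10 isoenzyme genes belong to the same known response. The list of 17 holds regulators of the response, HIF1A, EPAS1, ARNT and VHL, beside genes known to be induced. In MKL-2 minus the other 3 MCC lines, 15 of the 17 hypoxia genes had a positive difference, where 49.9% of all genes tested did. Their median was 1.35, beside -0.0023 over all genes tested, and none passed after adjustment. NDRG1, a stress-induced gene, stood at 402 TPM in MKL-2, against 9.64, 21.1 and 11.2 TPM in MCC13, MKL-1 and WaGa, and 5.51 TPM in REH (difference 4.83 ± 0.64 SE, adjusted p = 0.819). CA9, the tumour carbonic anhydrase, stood at 587 TPM in MKL-2, against 0.109, 128 and 81.9 TPM in MCC13, MKL-1 and WaGa, and 0.0389 TPM in REH. MCC13, which shared high HK2 and LDHA with MKL-2, was not placed alike by all of these genes. It was the lowest MCC line for 9 of the 17, CA9 among them, near the 43.4% of all genes for which it was the lowest. For 5 others it lay with MKL-2 above MKL-1 and WaGa. BNIP3, a mitochondrial autophagy gene, stood at 434 TPM in MKL-2, against 233, 72.8 and 118 TPM in MCC13, MKL-1 and WaGa. P4HA1, a collagen prolyl hydroxylase subunit, stood at 49.1 TPM in MKL-2, against 41.9, 16.6 and 8.64 TPM in MCC13, MKL-1 and WaGa. BNIP3L, EGLN1 and EPAS1 also had MCC13 and MKL-2 above the other 2. These 5 genes were picked for this pattern after their values were seen, although EPAS1 also fell under the naming rule. The share of all genes with this pattern was not counted. In MCC13 minus the other 3 none of the 17 passed. CA9 was under 1 TPM in MCC13 and entered this test only through the other 3 lines, so its levels are given without a test. DDIT4, a stress-induced inhibitor of growth signalling, had a difference of -5.37 that did not pass under the main settings. The result for DDIT4 turned with the setting: it passed among genes averaging 5 TPM or more, and on leaving out a line it did not. HIF1A, which encodes the oxygen-regulated factor itself, had 104 TPM in MCC13, 110, 183 and 102 TPM in MKL-1, WaGa and MKL-2, and 74.2 TPM in REH, and was named after its values were seen.

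Pseudogenes resemble their parent gene closely enough for reads to be shared, so their level was checked. The 6 annotated pseudogenes of LDHA, led by LDHAP4, summed to 0.735% to 1.87% of LDHA in the 4 MCC lines and to 8.18% in REH, and the 4 of ENO1, led by ENO1P4, to 0.422% to 2.20% of ENO1 in the MCC lines and to 3.02% in REH. Those of LDHB, ALDOA and HK2 stayed at or under 0.443% in every line, and HK1, PFKP, PFKM, ALDOC and ENO2 had none in the table. The levels of LDHA and ENO1 in REH are uncertain by about these shares.

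For the 3 members of widest range on the log2(TPM + 1) scale, the genes of most similar profile were sought among 11857 genes, by the root mean square difference of the centred log2(TPM + 1) profile over the 5 lines. HK2 was nearest to PELI1, at 0.21, with JAM2 at 0.29 and TSHZ3 at 0.44. PELI1 stood at 18.5 TPM in MCC13, 0.398, 0.429 and 16.6 TPM in MKL-1, WaGa and MKL-2, and 19.7 TPM in REH, which is the division of the lines seen for HK2. PFKM was nearest to TMEM243, at 0.25, with EDEM1 at 0.27 and METRNL at 0.28. No gene came as close to ALDOC, for which the nearest was KRT9 at 1.33, followed by NKD2 at 1.41 and VWA5B1 at 1.47. With 5 lines, a close profile is a description of these libraries only.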

How the data were processed

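Total RNA of 5 human cell lines was sequenced after oligo-dT enrichment with a directional kit, per the labels' protocols. The authors' deposited table holds TPM values for 57905 genes. The submitters' processing notes name hg19 and GRCh37 as builds and, without roles or order, SAMtools 0.1.19, StringTie 1.3.5, STAR 2.4.5b and bcl2fastq 2.20. Which annotation was counted is not given in the sources available. TPM keeps no depth, and a few abundant genes can shift all others. A further column of values matched no sample and was not used, and a deposited exon table of another gene was not used.

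From these values, log2(TPM + 1) was computed and genes reaching 1 TPM in any line of a comparison were tested with limma 3.58.1 in R 4.3.3 (moderated with a variance trend, 2-sided), with Benjamini-Hochberg adjustment over all genes tested and a threshold of 0.05. The single line of a comparison has no replicate and was assumed to vary as the others. Lines are the only replicates, and p-values measure the spread between lines. Isoenzyme ratios, (TPM + 1) over (TPM + 1) on the log2 scale, were compared by exact permutation. The fit was tested on simulated data. Alternatives were pseudocounts of 0.1 and 5, no filter on low values, a mean of at least 5 TPM, quantile normalization, rescaling without mitochondrially encoded genes, no variance trend, and leaving out each line.

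The 10 members and the 12 other gene lists, with 154 gene entries, were chosen with earlier results of these data known. All members were to be named, and of each other list up to 4 called genes with the largest difference per comparison, or 2 where none passed; pathway genes outside that rule are marked where they appear. A further gene is not reported here. Of the listed symbols TIGAR was not matched, and 2 symbols matched 2 identifiers, of which the more abundant was used. Promoter windows came from RefSeq (GRCh38.p14), unlike the build of the expression table, and were searched for ACGTG and GCGTG on both strands. All 10 members matched a window.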

Additional observations from a re-analysis of the deposited data

Results flagged for a closer look

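In 6 of 59 sets of the 4 MCC lines, for members, other named pathway genes and isoenzyme ratios, 1 line lay far from the other 3, by the gap to its nearest neighbour as a share of the whole range on the log2 scale (above Dixon's 95% critical value). Chance flags about 1 in 20 such sets, but 4 of the 6 are genes at or near 0 in the other 3 lines, where a gap close to 1 follows from the floor, so the count of 6 is not set against chance.

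ENO2 was set apart in MCC13, at 33.9 TPM, with a gap of 0.889 of the range. The log2 ratio of PFKP over PFKM was set apart in MKL-2, at 4.68 against 2.47 to 2.82 in the other 3 lines (0.841). The 4 genes at or near 0 in the other 3 lines were HKDC1 in MCC13, at 2.71 TPM (0.995), SLC2A10 in MCC13, at 7.02 TPM (1.0), LDHC, the testis form of lactate dehydrogenase, in MKL-2, at 6.45 TPM (0.96), and SLC2A14, a glucose transporter gene very similar in sequence to SLC2A3, in MKL-1, at 11.5 TPM (0.996).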

How the results depend on the processing

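The count of genes called moved most with the filter and with the lines used. In MCC minus REH it was 1166, and 3694 with no filter, 288 at a mean of 5 TPM or more and 0 to 2828 on leaving out a line, the highest without MCC13. In MCC13 minus the other 3 it was 1852, and 3312 with no filter, 1167 at a mean of 5 TPM or more and 0 on leaving out any of MKL-1, MKL-2 or WaGa. In MKL-2 minus the other 3 it was 0, and 604 with no filter. Members called were 0 in MCC minus REH, with 0 to 2 on leaving out a line (2 without MCC13), and 1 in MCC13, with 0 on leaving out a line. Higher against lower calls were 243 and 923 in MCC minus REH, but 403 and 482 with a pseudocount of 0.1; in MCC13 they were 1340 and 512, but 983 and 711. Among the members' differences, 347 kept their direction and side of the threshold under the other settings and 3 turned: ENO1 in MCC minus REH (0.18 under quantile normalization, 0.0076 without mitochondrially encoded genes) and PFKM in MKL-1 (-0.030 under quantile normalization). Leaving out a line turned a further set, all uncalled, with these ranges: in MCC minus REH HK1 -0.54 to 0.088, ALDOC -2.10 to 0.64, ENO1 -0.38 to 0.25 (0.015 without WaGa) and LDHA -0.70 to 0.36; in MKL-1 PFKM -0.29 to 0.81 and ENO2 -0.094 to 1.78; in MKL-2 ENO1 -0.0061 to 0.94 and HK1 -0.73 to 0.22 (0.078 without WaGa); in WaGa ENO1 -0.88 to 0.068 and ENO2 -0.27 to 1.61; and for the ratio of PFKP over PFKM in MCC13 -0.91 to 0.19. The causes were not tested. Quantile normalization moved the median of all genes by over 0.1 in both main comparisons (to 0.03 and -0.13). No paired analysis was possible because REH is a single line and the MCC lines carry no replicate numbers in the labels. Depth is unknown, so low values such as ALDOC in MCC13 have no counting error.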
